A study of Mus musculus with 42 samples.

Results

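Drosha, Dgcr8, Ddx5, Ddx17, Xpo5, Dicer1, Tarbp2 and Prkra encode the core enzymes and cofactors that make microRNAs. These 8 genes were taken by symbol from 2 tables of read counts per gene, 1 per experiment, and each had 1 row among the 18825 rows of experiment 1 and the 19866 rows of experiment 2. The question asked of each was how much of its own messenger RNA was recovered with Tnrc6a (GW182), the scaffold protein through which Argonaute-bound microRNAs silence their targets, and whether that recovery, or the level of the mRNA in the cells, differed when Trim71 or Ago2 was knocked out. Trim71 is an RNA-binding protein that represses mRNAs, and Ago2 is an Argonaute protein that carries microRNAs.

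All libraries came from mouse embryonic stem cells labelled with the reporter GFP_5xT71BS. Cells called untagged here were labelled in addition with the 129S6/SvEvTac background, yGlob [GFP_5xT71BS] and stable FLAG-Cas9 with T2A::Blasticidin. The treatment labels of the other lines stated neither this background nor Cas9. The tagged cells carried HA-AVI-Tnrc6a in addition to the reporter. Trim71KO cells added Trim71-/- to the tag, and Ago2KO cells added Ago2-/- to the tag. For each genotype, total RNA (input) and the RNA recovered on anti-HA beads (immunoprecipitate, IP) were sequenced in 3 libraries each, so untagged IP libraries measure what sticks to the beads without a tag. Experiment 1 had untagged, tagged and Trim71KO cells (18 libraries), and experiment 2 repeated these and added Ago2KO (24 libraries). Neither the number of clones behind each line nor separate cultures for the replicates were stated, so the p-values measure the spread between these libraries, which may be technical. Cells were grown on gelatin in serum with LIF.

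A primary microRNA transcript is cut in the nucleus by the Microprocessor, which consists of the RNase III enzyme Drosha and its double-stranded-RNA-binding partner Dgcr8. The DEAD-box helicases Ddx5 (p68) and Ddx17 (p72) associate with it and promote the processing of some primary transcripts. Xpo5 (exportin 5) carries the resulting precursor hairpin to the cytoplasm, where the RNase III enzyme Dicer1 cuts it to the mature duplex, together with the double-stranded-RNA-binding proteins Tarbp2 (TRBP) and Prkra (PACT). The Microprocessor also acts on mRNA: Drosha cleaves hairpins in the Dgcr8 mRNA itself and thereby lowers it, while Dgcr8 protein stabilises Drosha protein. Embryonic stem cells that lack Dgcr8 or Dicer1 survive but differentiate poorly.

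Within the gene bounds of 3 of the 8 genes lie microRNA hairpins, and their mature sequences are printed because the hairpin in Dgcr8 is what makes its mRNA a Drosha substrate and because 3 of the hairpins have count rows of their own. The RefSeq sequences (GRCm38.p6) run 5′ to 3′, and capitals mark the seed, bases 2 to 8. The 8 mature microRNAs had 8 distinct seeds. The first 4 are from Dgcr8 (chromosome 16, minus strand), the next 2 from Xpo5 (chromosome 17, plus strand) and the last 2 from Ddx5 (chromosome 11, minus strand).
mmu-miR-1306-5p: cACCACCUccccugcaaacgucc
mmu-miR-1306-3p: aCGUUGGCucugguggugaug
mmu-miR-3618-5p: uGUGAUUUccaauaauugaggc
mmu-miR-3618-3p: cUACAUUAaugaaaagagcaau
mmu-miR-693-5p: cAGCCACAuccgaaaguuuuc
mmu-miR-693-3p: gCAGCUUUcagauguggcuguaa
mmu-miR-3064-5p: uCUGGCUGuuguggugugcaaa
mmu-miR-3064-3p: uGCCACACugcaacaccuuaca

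In GRCm38.p6, Drosha spans chr15:12824804-12935291 on the plus strand and Dgcr8 chr16:18253948-18289251 on the minus strand. Ddx5 lies at chr11:106780355-106789185 and Ddx17 at chr15:79527696-79546764, both on the minus strand. Xpo5 lies at chr17:46202811-46243598 and Tarbp2 at chr15:102516077-102523676, both on the plus strand. Dicer1 lies at chr12:104687740-104751968 and Prkra at chr2:76609215-76648220, both on the minus strand. Another protein-coding gene overlaps the end of 4 of them: Trmt2a over 825 bases of Dgcr8, Map3k12 over 928 bases of Tarbp2, Cep95 over 546 bases of Ddx5 and Kdelr3 over 44 bases of Ddx17. How reads in such overlaps were counted is not given in the sources used here.

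Library totals ran from 12587257 to 23657840 counts in experiment 1 and from 16296447 to 21026552 in experiment 2. Tnrc6a mRNA followed the labels: its log2 IP to input ratio in tagged cells exceeded that in untagged cells by 8.34 in experiment 1 (SE 0.28, edgeR adjusted p = 3.07e-17) and by 7.90 in experiment 2 (SE 0.31, adjusted p = 1.03e-15). Ago2 mRNA in the input fell by 1.12 on the log2 scale in Ago2KO (SE 0.10, adjusted p = 2.52e-08). Trim71 mRNA was not lower in the inputs labelled Trim71KO but 0.23 higher in experiment 1 (adjusted p = 0.0437) and 0.42 higher in experiment 2 (adjusted p = 0.000411), so the input level does not check that label. The log2 IP to input ratio of Trim71 mRNA fell by 1.75 from tagged to Trim71KO cells in experiment 1 (adjusted p = 2.02e-09) and by 1.02 in experiment 2 (adjusted p = 9.49e-06). All 10 embryonic stem cell markers examined were measured, with a summed input level of 6821 to 9254 CPM (counts per 1000000 counts, after TMM scaling of library size). In experiment 1 the tagged inputs varied more than other inputs: the median gene lay 0.12, 0.13 and 0.063 from its group mean on the log2 scale in replicates 1, 2 and 3, against 0.045 to 0.055 in the other 6 inputs of that experiment. The Trim71KO IP of experiment 1 also had a wide pair, replicate 1 at 0.16 and replicate 3 at 0.14.

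Levels are given as CPM, and as CPM per kilobase of gene length where genes are compared with each other. In untagged input of experiment 1, the helicases were the most abundant per kilobase, Ddx5 at 138 ± 1.9 CPM per kilobase (SD, n = 3) and Ddx17 at 70.0 ± 3.5. Drosha followed at 33.1 ± 0.37, Xpo5 at 23.8 ± 0.17 and Tarbp2 at 15.1 ± 0.42. Dicer1 at 9.19 ± 0.31 and Dgcr8 at 8.81 ± 0.24 CPM per kilobase had overlapping libraries, and Prkra was lowest at 5.63 ± 0.54. Drosha thus stood well above its partner Dgcr8, and Dicer1 below its partner Tarbp2. The order Ddx5, Ddx17, Drosha, Xpo5, Tarbp2 held in all 7 input groups, with Tarbp2 and the next gene overlapping in the Trim71KO input of experiment 2. Dicer1 and Dgcr8 changed places between input groups, and Prkra was last in each. In the IP of tagged cells, Tarbp2 ranked above Xpo5 in both experiments, at 19.4 ± 2.5 against 11.6 ± 1.6 CPM per kilobase in experiment 1, where the libraries did not overlap, and at 14.5 ± 0.89 against 13.6 ± 1.5 in experiment 2, where they did.

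**Figure D1:**
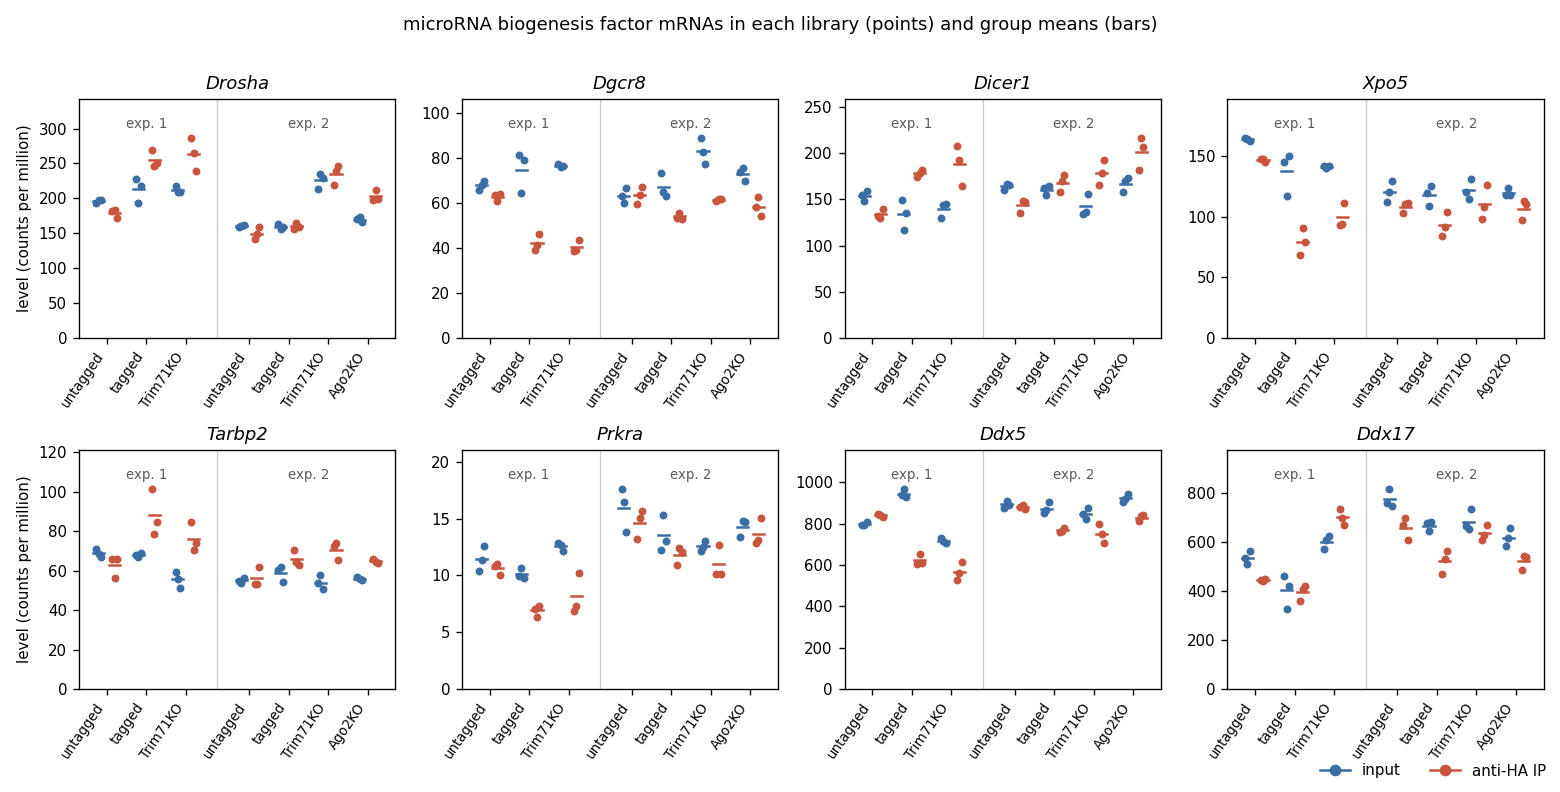
CPM (TMM-scaled) of each of the 8 genes in every library of both experiments; points are libraries, bars the mean of 3, blue input and red IP. Dgcr8 in the tagged IP of experiment 1 sits between 39.0 and 46.2 CPM, below all 3 untagged IP libraries at 60.7 to 64.0.

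Recovery with Tnrc6a was taken as how far, on the log2 scale, the IP lay above the input in tagged cells beyond the same distance in untagged cells, called tag-specific enrichment. In experiment 1, 6 of the 8 genes were called at an adjusted p under 0.05, against 56.9% of the 18772 genes tested, so the share is not far from the background. The calls went both ways: mRNAs of the catalytic subunits Drosha and Dicer1 and of Tarbp2 were enriched, and those of Dgcr8, Ddx5 and Xpo5 were depleted. In experiment 2 only Dgcr8 was called, 1 of 8 against 27.7% of the 19778 genes tested. At an unadjusted p under 0.05 the counts were 7 and 3. The median tag-specific enrichment of the 8 genes was -0.10 on the log2 scale in both experiments, beside -0.10 and -0.03 over all genes tested. Fewer molecules per cell and fewer cells with the mRNA cannot be told apart in these bulk libraries.

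Dgcr8 mRNA was depleted from the Tnrc6a IP in both experiments. In experiment 1 its untagged IP libraries held 63.4, 60.7 and 64.0 CPM and its tagged IP libraries 39.0, 41.5 and 46.2, while the inputs held 65.8, 68.0 and 69.5 untagged and 81.2, 64.2 and 79.0 tagged. The IP groups did not overlap, and the lowest tagged input, replicate 2, lay below all untagged inputs while the other two lay above. Tag-specific enrichment was -0.71 (SE 0.13, adjusted p = 5.69e-05), a 1.64-fold depletion, and -0.75 without tagged input replicate 2. In experiment 2 the untagged IP held 59.4, 63.6 and 67.1 CPM and the tagged IP 53.4, 55.6 and 52.9, with inputs of 62.9, 59.8 and 66.6 untagged and 73.2, 64.6 and 62.9 tagged. The IP groups again did not overlap and the inputs did. The depletion was 1.24-fold (log2 -0.32, SE 0.10, adjusted p = 0.0178). It missed the threshold without untagged input replicate 2 (-0.28, adjusted p = 0.0555) and without tagged input replicate 1 (-0.25, adjusted p = 0.0604). Differences between the experiments were tested in 1 joint fit that scaled all libraries together. They need not equal the gap between the separate values, here -0.71 and -0.32. The difference in Dgcr8 depletion was not called (-0.29, 95% interval -0.59 to 0.01, edgeR adjusted p = 0.157). Without tagged input replicate 2 of experiment 1 it was called (-0.39, adjusted p = 0.0378).

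Drosha mRNA, encoding the nuclease partner, behaved otherwise. Its IP libraries in experiment 1 held 183, 183 and 172 CPM untagged and 269, 247 and 251 CPM tagged, without overlap, and its inputs held 194, 197 and 198 untagged and 227, 193 and 218 tagged. The enrichment was 1.32-fold (log2 0.40, SE 0.12, adjusted p = 0.00749). In experiment 2 the IP libraries held 141, 149 and 159 CPM untagged and 156, 165 and 159 tagged, which overlapped, and the enrichment of 0.10 (95% interval -0.06 to 0.26, adjusted p = 0.391) was not called. In the joint fit the Drosha enrichment was larger in experiment 1 than in experiment 2 by 0.40 on the log2 scale (SE 0.13, edgeR adjusted p = 0.0227). That is more than the gap between the separate values of 0.40 and 0.10. The difference missed the threshold without tagged input replicate 2 (0.33, adjusted p = 0.0512) or replicate 3 (0.33, adjusted p = 0.0649) of experiment 1.

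The helicase genes differed from each other. Ddx5 mRNA in experiment 1 held 848, 842 and 832 CPM in untagged IP and 606, 656 and 609 CPM in tagged IP, while its tagged inputs, at 937, 966 and 928, lay above the untagged inputs at 792, 792 and 811. Tagged cells thus had the higher input and the lower IP. The depletion was 1.59-fold (log2 -0.67, SE 0.12, adjusted p = 3.14e-05). In experiment 2 Ddx5 held 882, 893 and 869 CPM in untagged IP and 760, 763 and 780.4 CPM in tagged IP, again without overlap, but the change of -0.17 was not called (95% interval -0.31 to -0.03, adjusted p = 0.0862). DESeq2 called it (-0.19, adjusted p = 0.0135), as did edgeR with RLE size factors (-0.19, adjusted p = 0.0442). The Ddx5 depletion was larger in experiment 1 by 0.40 in the joint fit (SE 0.12, edgeR adjusted p = 0.011), less than the gap between the separate values. Ddx17 held 442, 440.5 and 446 CPM in untagged IP and 360.4, 407 and 418 CPM in tagged IP of experiment 1, and its tagged inputs were also the lower ones. With all libraries it was called in neither experiment: its tag-specific enrichment was 0.25 in experiment 1 (95% interval -0.04 to 0.53, adjusted p = 0.15) and -0.12 in experiment 2 (95% interval -0.32 to 0.07, adjusted p = 0.389). Without tagged input replicate 1 of experiment 1, Ddx17 was called enriched (0.38, adjusted p = 0.0214), and under scaling by library size alone it was called depleted in experiment 2 (-0.33, adjusted p = 0.038). In the joint fit the Ddx17 values of the 2 experiments differed by 0.48 (SE 0.17, edgeR adjusted p = 0.0301), more than the separate values do.

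Xpo5 mRNA, for the export receptor, was 1.55-fold depleted in experiment 1. Its untagged IP held 147, 147 and 145 CPM and its tagged IP 68.4, 90.3 and 79.3, and its inputs held 164, 164 and 162 untagged and 145, 117 and 150.2 tagged. Tagged libraries were lower than untagged ones in both fractions, and by more in the IP. The enrichment was -0.63 (SE 0.14, adjusted p = 0.000658). In experiment 2 the untagged IP held 103, 110.4 and 111 CPM and the tagged IP 83.7, 91.7 and 104, which overlapped, and the value of -0.18 was not called (95% interval -0.42 to 0.06, adjusted p = 0.302). The difference between the experiments in the joint fit, -0.35, was not called either (95% interval -0.71 to 0.02, edgeR adjusted p = 0.161).

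Of the Dicer group, the nuclease and Tarbp2 were enriched in experiment 1. Dicer1 held 133, 130.0 and 140.0 CPM in untagged IP and 175, 179 and 181 CPM in tagged IP, with inputs of 154, 149 and 159 untagged and 149.8, 117 and 135 tagged. Every tagged IP library lay above every untagged one. The enrichment of 1.53-fold (log2 0.61, SE 0.14, adjusted p = 0.000475) was 0.58 without tagged input replicate 2. In experiment 2 Dicer1 IP libraries held 135, 148 and 147 CPM untagged and 158, 169.8 and 176 tagged, without overlap, and its enrichment of 0.26 was just short of the threshold (95% interval 0.06 to 0.46, adjusted p = 0.0558). It was called in 4 of the 7 other settings, among them the fit of only the groups compared (0.26, adjusted p = 0.0228). Tarbp2 held 65.9, 56.1 and 66.1 CPM in untagged IP and 101, 78.7 and 84.9 in tagged IP of experiment 1, without overlap, while its inputs of 66.99 to 70.8 and 66.98 to 69.1 overlapped. Its enrichment was 1.42-fold (log2 0.51, SE 0.14, adjusted p = 0.0033), and 0.14 in experiment 2 (95% interval -0.06 to 0.33, adjusted p = 0.342). Both genes were more enriched in experiment 1 in the joint fit, Dicer1 by 0.46 (SE 0.16, edgeR adjusted p = 0.0303) and Tarbp2 by 0.48 (SE 0.17, edgeR adjusted p = 0.0314). Both differences exceed the gap between the separate values. Prkra, the least abundant of the 8, was called in neither experiment, at -0.44 (95% interval -0.82 to -0.07, adjusted p = 0.0531) and -0.07 (95% interval -0.38 to 0.23, adjusted p = 0.773).

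**Figure D2:**
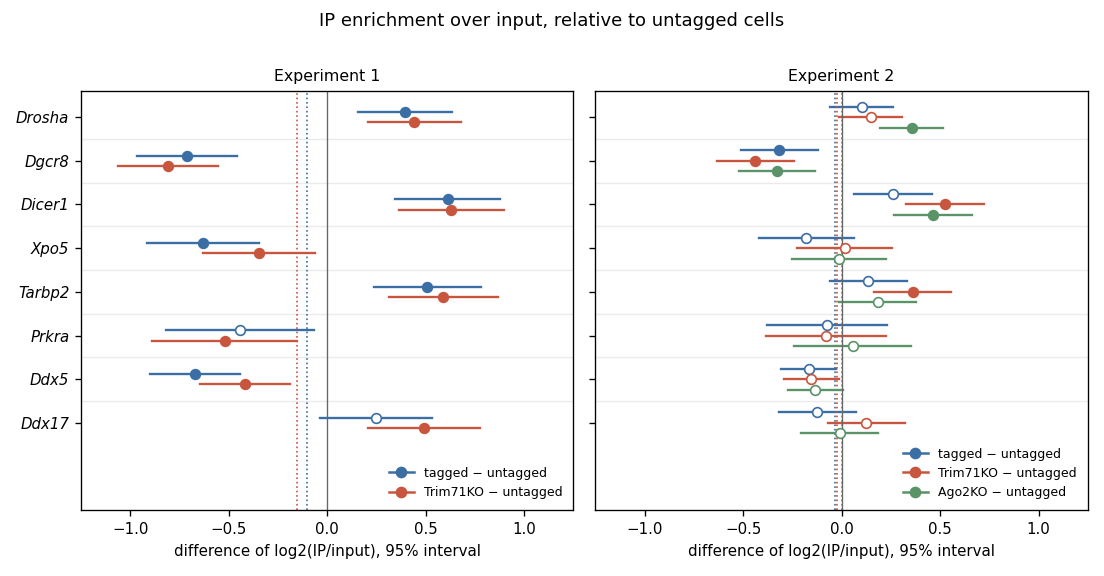
Tag-specific enrichment (log2) of the 8 genes in each experiment, with 95% intervals. Drawn beside it is the enrichment of Trim71KO and, in experiment 2, Ago2KO cells over untagged cells. Filled points passed the adjusted p threshold of 0.05 and open points did not. Each dotted line is the median over all genes tested for the comparison of its colour. Of the filled tagged points in experiment 1, Drosha, Dicer1 and Tarbp2 lie above 0 and Dgcr8, Xpo5 and Ddx5 below it. Among the tagged points of experiment 2 only Dgcr8 passed.

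The 6 calls of experiment 1 held in all 7 other settings and in all 12 fits with 1 library left out. Across the genes tested, 5 of 8 tag-specific enrichments differed between the experiments, against 28.5% of the 18620 genes in both tables. Those of Drosha, Dicer1, Tarbp2 and Ddx17 missed the threshold in 2, 7, 8 and 7 of the 24 fits with 1 library left out. That of Ddx5 was kept in all 24 but not under scaling by library size alone (-0.26, adjusted p = 0.179). Without tagged input replicate 2 of experiment 1, the differences of Tarbp2 and Ddx5 kept their calls, those of Drosha, Dicer1 and Ddx17 lost theirs, and that of Dgcr8 gained one (-0.39, adjusted p = 0.0378). Without tagged input replicate 3, Ddx5 alone was called.

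Knocking out Trim71 or Ago2 in the tagged cells asked whether recovery with Tnrc6a depended on either protein. The log2 enrichment of Tnrc6a mRNA itself was called lower in Trim71KO of experiment 1 (-0.86, SE 0.24, edgeR adjusted p = 0.0476). Its changes in Trim71KO of experiment 2 (-0.40, edgeR adjusted p = 0.542) and in Ago2KO (-0.19, edgeR adjusted p = 0.869) were not called. The change in log2 enrichment from tagged to knockout was called for 0 of the 8 genes in each case. The backgrounds were 3.74% of genes for Trim71KO in experiment 1, 1.49% for Trim71KO in experiment 2 and 4.16% for Ago2KO. At an unadjusted p under 0.05 the counts were 1, 3 and 1, and DESeq2 called 1, 0 and 1 genes. With the replicate number as a block in experiment 2, where it pairs tagged and Trim71KO libraries, the calls over all genes for Trim71KO rose from 295 to 470, with 0 of the 8 genes among them. The direct comparison of Trim71KO with Ago2KO called 0 of 8, against 11.8% of genes (1 at an unadjusted p under 0.05, 1 by DESeq2).

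For Dgcr8 the change in Trim71KO was -0.10 in experiment 1 (95% interval -0.35 to 0.16) and -0.12 in experiment 2 (-0.32 to 0.07), and in Ago2KO -0.01 (-0.21 to 0.18). The experiment 1 value was 0.06 without tagged input replicate 2 (adjusted p = 0.867) and -0.01 without Trim71KO IP replicate 1 (adjusted p = 0.978), so its sign rests on single libraries. Its log2 IP to input ratio in experiment 1 was -0.82 tagged and -0.92 Trim71KO, and -0.31 tagged, -0.43 Trim71KO and -0.32 Ago2KO in experiment 2. In untagged cells the same ratio was -0.11 and 0.01. The ratio lay below that of untagged cells in each genotype that carried the tag.

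Drosha was the gene nearest to a call in Ago2KO. Its Ago2KO IP libraries held 197, 212 and 199.6 CPM, above the tagged IP at 156, 165 and 159, while the inputs held 169.9, 173 and 166 in Ago2KO and 163, 156 and 159 in tagged cells. The change in enrichment was 0.25 (95% interval 0.09 to 0.41, edgeR adjusted p = 0.0893; DESeq2 0.24, adjusted p = 0.0391). Enrichment in Trim71KO was 0.21 lower than in Ago2KO for Drosha (95% interval of the difference -0.37 to -0.05, edgeR adjusted p = 0.104; DESeq2 adjusted p = 0.045), and the Trim71KO change itself was 0.05 in both experiments.

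The Trim71KO change of Ddx5 was 0.26 in experiment 1 (95% interval 0.03 to 0.49, edgeR adjusted p = 0.297). DESeq2 called it (0.29, adjusted p = 0.0115), as did edgeR without Trim71KO IP replicate 1 (0.37, adjusted p = 0.0396), and in experiment 2 the value was 0.01 (95% interval -0.13 to 0.15). Xpo5 changed in Trim71KO by 0.29 (95% interval 0.00 to 0.57) and 0.20 (-0.05 to 0.44), Ddx17 by 0.24 (-0.04 to 0.53) and 0.25 (0.05 to 0.45), and Tarbp2 by 0.08 (-0.19 to 0.36) and 0.23 (0.03 to 0.42). Dicer1 changed by 0.02 (-0.25 to 0.28) and 0.26 (0.07 to 0.46), and Prkra by -0.08 (-0.46 to 0.31) and 0.00 (-0.32 to 0.31). None of these passed after adjustment. Without tagged input replicate 2, the experiment 1 changes of Xpo5 (0.45, adjusted p = 0.0682) and Ddx17 (0.43, adjusted p = 0.0642) came near the threshold. Drosha and Dicer1 were then at 0.17 each, Tarbp2 at 0.15, Ddx5 at 0.30 and Prkra at -0.06, none of them called. Without Trim71KO IP replicate 1, Xpo5 was at 0.39 (adjusted p = 0.0847) and Prkra turned to 0.08. The Trim71KO changes of the 2 experiments differed for 0 of the 8 genes, against 0.0967% of genes (0 at an unadjusted p under 0.05 in edgeR, with DESeq2 not run on the joint data).

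**Figure D3:**
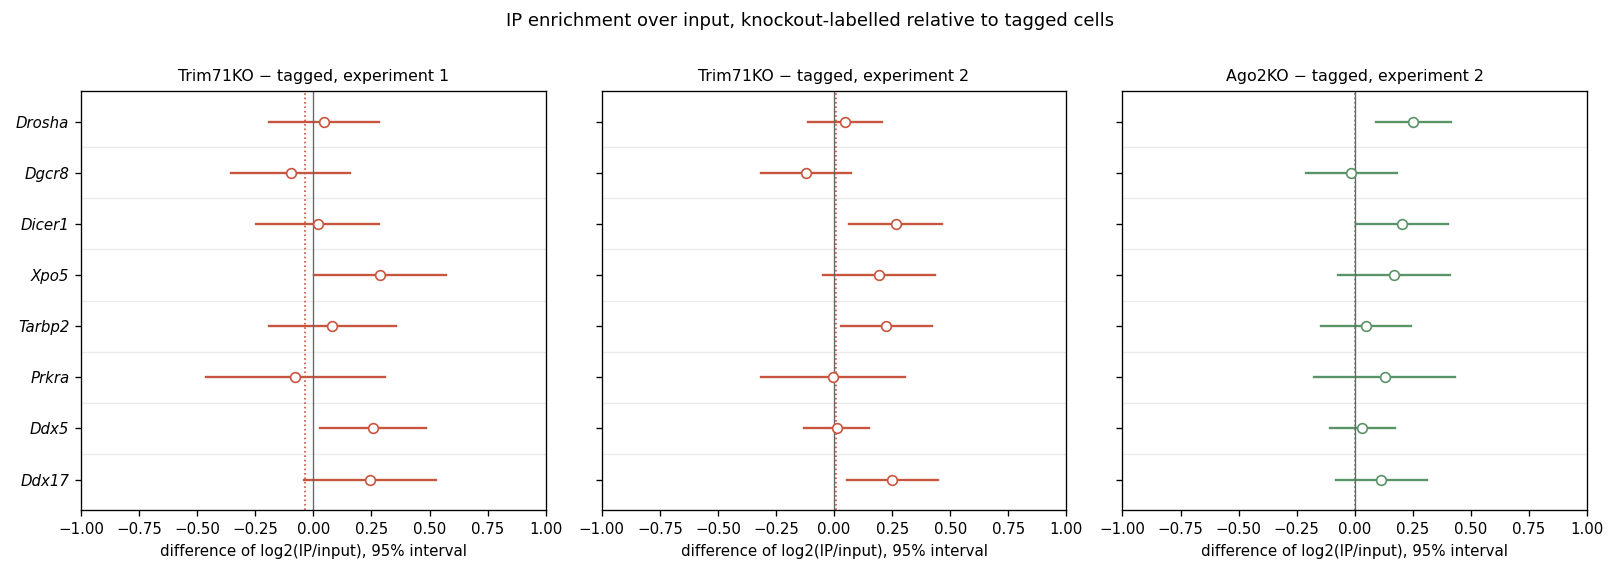
Change in log2 enrichment of the 8 genes from tagged to Trim71KO cells (both experiments) and to Ago2KO cells, with 95% intervals; open points did not pass the adjusted p threshold of 0.05, and the dotted line is the median over all genes. All points are open, from -0.12 for Dgcr8 to 0.29 for Xpo5 in Trim71KO and from -0.01 for Dgcr8 to 0.25 for Drosha in Ago2KO.

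Enrichment that remained in the knockouts was measured against the untagged cells. These values share the untagged libraries with the tag-specific values, so they stand beside them and are no separate support. In Trim71KO of experiment 1, 8 of 8 genes were called, against 54.9% of genes: Drosha at 0.44, Dicer1 at 0.63, Tarbp2 at 0.59 and Ddx17 at 0.49 were enriched, and Dgcr8 at -0.81, Xpo5 at -0.35, Prkra at -0.52 and Ddx5 at -0.42 were depleted. The median over all genes was -0.15 there and between -0.04 and -0.02 whenever 1 library was left out. Xpo5, Prkra and Ddx5 lost their calls in 12, 11 and 10 of those 12 fits. The other 5 kept theirs in all. Without Trim71KO IP replicate 1, Ddx5 was at -0.26 (adjusted p = 0.0528), Xpo5 at -0.20 (adjusted p = 0.24) and Prkra at -0.32 (adjusted p = 0.176).

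In Trim71KO of experiment 2, 3 of 8 genes were called, against 38.7% of genes. Dicer1 was 1.44-fold enriched (log2 0.53, SE 0.10, adjusted p = 0.000136), Tarbp2 1.28-fold enriched (0.36, SE 0.10, adjusted p = 0.00486) and Dgcr8 1.35-fold depleted (-0.44, SE 0.10, adjusted p = 0.000794). Under scaling by library size alone Tarbp2 lost its call (0.21, adjusted p = 0.0916) and Ddx5 gained one (-0.31, adjusted p = 0.00715). In Ago2KO 3 of 8 were called, against 20.9% of genes: Drosha at 0.35 (SE 0.08, adjusted p = 0.00196) and Dicer1 at 0.46 (SE 0.10, adjusted p = 0.0011) were enriched, and Dgcr8 at -0.33 (SE 0.10, adjusted p = 0.0166) was depleted. The Dicer1 IP libraries of experiment 2 held 182, 216 and 206 CPM in Ago2KO and 166, 179 and 192 CPM in Trim71KO, against 135, 148 and 147 in untagged cells. Both knockout groups lay wholly above the untagged IP. The call of Dgcr8 in Ago2KO was lost without untagged input replicate 2 (-0.29, adjusted p = 0.0545), and that of Drosha under scaling by library size alone (0.26, adjusted p = 0.0568).

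Input libraries show the level of each mRNA in the cells. Tagged against untagged input called 1 of 8 genes in experiment 1 (10.6% of genes) and 0 of 8 in experiment 2 (1.39% of genes, with 2 of the 8 genes at an unadjusted edgeR p under 0.05 and 0 called by DESeq2). The call was Ddx17, at 536, 508 and 562 CPM untagged and 458, 328 and 419 tagged, without overlap (log2 -0.41, SE 0.10, adjusted p = 0.0127). Without tagged input replicate 2, the lowest of them, it was -0.28 (adjusted p = 0.0957). In experiment 2 Ddx17 inputs held 758, 812 and 746 CPM untagged and 675, 643 and 680.1 tagged, also without overlap, at -0.21 (95% interval -0.35 to -0.08, adjusted p = 0.156).

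Trim71KO input against tagged input called 3 of 8 genes in experiment 1 (34% of genes) and 2 of 8 in experiment 2 (27.2% of genes), and no gene was called in both. In experiment 1, Ddx17 inputs held 568, 609 and 624 CPM in Trim71KO against 458, 328 and 419 in tagged cells, and Ddx5 inputs held 733, 714 and 708 against 937, 966 and 928. Neither gene's groups overlapped, and the paralogous helicases moved in opposite directions. Ddx17 rose 1.49-fold (log2 0.58, SE 0.10, adjusted p = 0.000148), and 0.46 without tagged input replicate 2 (adjusted p = 0.000886). Ddx5 fell 1.31-fold (-0.39, SE 0.08, adjusted p = 0.000767). Tarbp2 fell 1.22-fold (-0.29, SE 0.10, adjusted p = 0.0253), from 67.8, 67.0 and 69.1 CPM to 59.5, 55.8 and 51.3. That call was lost in 4 of 6 fits with 1 library left out and under scaling by library size alone (-0.24, adjusted p = 0.0766).

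In experiment 2, both Microprocessor subunits rose in the inputs labelled Trim71KO. Drosha held 214, 236 and 229 CPM against 163, 156 and 159 in tagged cells, 1.42-fold higher (log2 0.50, SE 0.06, adjusted p = 2.28e-07). Dgcr8 held 88.6, 82.7 and 77.3 CPM against 73.2, 64.6 and 62.9, 1.24-fold higher (log2 0.31, SE 0.07, adjusted p = 0.0013). Neither gene's groups overlapped, and both calls held in all 6 other settings and all 6 fits with 1 library left out. In experiment 1 the same comparisons gave 0.00 for Drosha (95% interval -0.17 to 0.16) and 0.03 for Dgcr8 (-0.14 to 0.21), and -0.06 for each without tagged input replicate 2. Dicer1 inputs of experiment 2 held 135, 136 and 156 CPM in Trim71KO against 162, 155 and 165 tagged, at -0.17 (95% interval -0.31 to -0.03, adjusted p = 0.0718). With the replicate block Dicer1 was called lower (-0.18, adjusted p = 0.0159).

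The response of the inputs to Trim71KO differed between the experiments for 3 of the 8 genes, against 22.8% of genes. Experiment 1 minus experiment 2 was -0.50 for Drosha (SE 0.09, adjusted p = 0.000169), -0.35 for Ddx5 (SE 0.08, adjusted p = 0.00281) and 0.55 for Ddx17 (SE 0.12, adjusted p = 0.000933). Dgcr8 at -0.27 was just short of the threshold (95% interval -0.48 to -0.06, adjusted p = 0.0579) and was called with the replicate block (-0.27, adjusted p = 0.0494). Its value was -0.37 without tagged input replicate 2 of experiment 1 (adjusted p = 0.0086). Ago2KO input against tagged input called 0 of 8 genes, against 6.96% of genes (0 at an unadjusted edgeR p under 0.05, 0 by DESeq2). The 8 values lay between -0.11 for Ddx17 and 0.13 for Dgcr8, and the widest interval, that of Prkra, ran from -0.13 to 0.29.

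Primitive endoderm markers moved with these groups. The summed input level of Gata4, Gata6, Sox17, Sox7 and Dab2 was 48.7 to 60.5 CPM in tagged and 11.0 to 12.5 CPM in Trim71KO libraries from experiment 1. Experiment 2 had 17.1 to 18.2 CPM in tagged, 6.54 to 8.39 in Trim71KO and 7.88 to 9.44 in Ago2KO cells. All 5 markers were measured in both experiments, and their part in the changes of Drosha, Dgcr8, Ddx5, Ddx17 and Tarbp2 was not tested. The summed level of the 3 neural markers was also lower in Trim71KO, at 12.1 to 14.6 against 17.2 to 20.4 CPM in experiment 1 and 12.3 to 17.0 against 21.4 to 23.7 in experiment 2. In Ago2KO the neural sum was higher than in tagged cells, at 24.3 to 26.8 CPM. Other lists were higher. The 3 measured of 4 fibroblast markers summed to 206 to 234.5 CPM in Trim71KO against 187 to 202 in tagged cells of experiment 1, and in experiment 2 to 301 to 305 in Trim71KO and 301 to 325 in Ago2KO against 237 to 239.5 in tagged cells. Most of that sum was Vim, with input group means of 160 to 175 CPM in experiment 1 and 203.5 to 278 in experiment 2. The 2 measured mesoderm markers of experiment 1 summed to 6.34 to 8.30 CPM in Trim71KO against 4.78 to 5.29. In experiment 2 the mesoderm sums overlapped, at 12.0 to 14.9 in Trim71KO and 11.3 to 12.5 in Ago2KO against 10.8 to 12.2 in tagged cells. The 1 measured trophoblast marker, Krt8, lay at 10.8 to 13.5 CPM in Trim71KO and 4.29 to 4.87 in Ago2KO against 5.38 to 8.75 in tagged cells of experiment 2, and in experiment 1 it was the lower in Trim71KO, at 11.3 to 12.6 against 12.7 to 13.5. The part of these lists in the changes was not tested either.

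**Figure D4:**
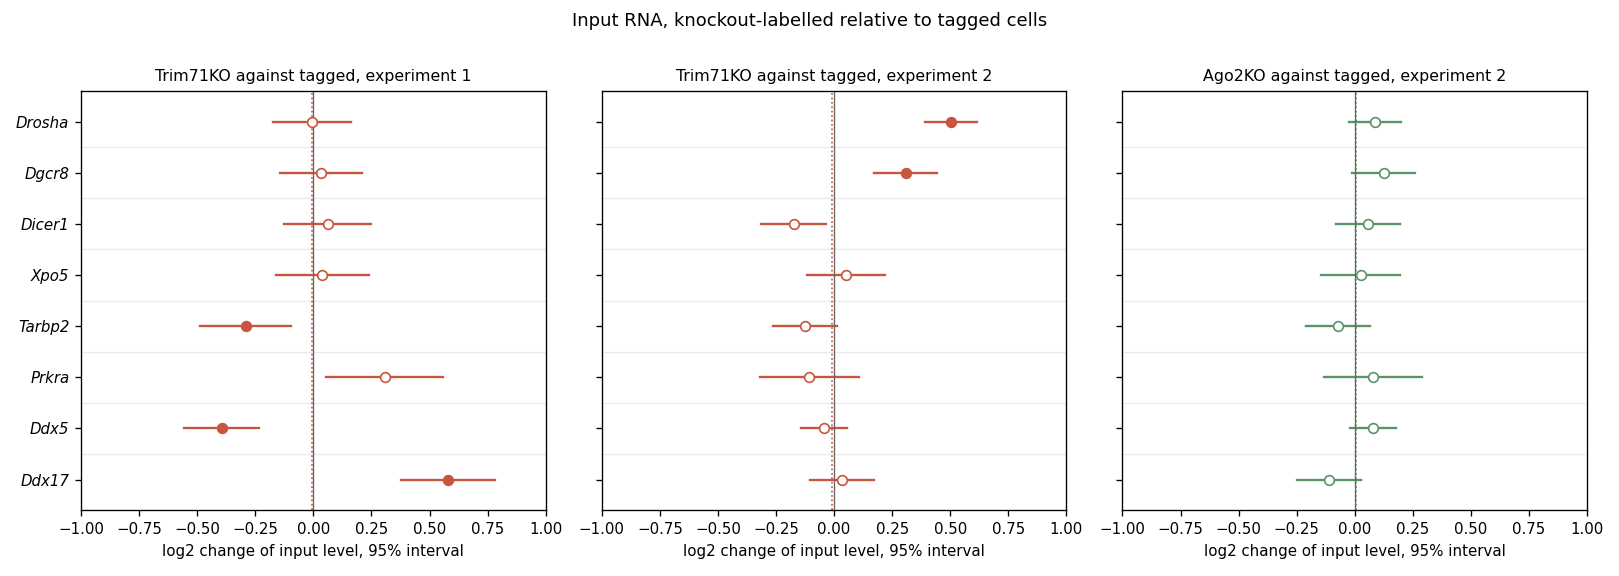
Log2 change of the input level of the 8 genes in the comparisons of Trim71KO with tagged cells (both experiments) and Ago2KO with tagged cells, with 95% intervals. Filled points passed the adjusted p threshold of 0.05. Trim71KO points are filled for Ddx17, Ddx5 and Tarbp2 in experiment 1 and for Drosha and Dgcr8 in experiment 2, and no Ago2KO point is filled.

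Of the 4 hairpins whose arms are printed above, 3 had rows of their own in the count tables. Mir1306, the 79-base row that covers miR-1306-5p and miR-1306-3p inside Dgcr8, held 6 to 38 counts a library, and its counts summed to 1.18% to 2.35% of the Dgcr8 counts of the same group. With all libraries it was called in none of the comparisons (without tagged input replicate 1 of experiment 1 its input was called higher in Trim71KO, at 0.90, adjusted p = 0.0453), and at 0.31 (SE 0.47, adjusted p = 0.595) its tag-specific enrichment in experiment 1 was too imprecise to set against the -0.71 of its host. Gm24572, the row of the miR-3618 hairpin in Dgcr8, was present in experiment 2 alone with 0 to 15 counts a library. Its tag-specific enrichment of -3.14 (SE 1.10, adjusted p = 0.0347) rested on 6 counts in untagged input against 21 in untagged IP, and the call was lost in 7 of 12 fits with 1 library left out. Mir3064, in Ddx5, held 0.0966% to 0.339% of the Ddx5 counts. Its log2 IP to input ratio was called below 0 in tagged cells of experiment 1 (-1.06, adjusted p = 0.00842) and experiment 2 (-0.64, adjusted p = 0.0245) and in Trim71KO cells (-0.93, adjusted p = 0.0336, and -0.63, adjusted p = 0.0362). In untagged cells Mir3064 also lay below 0 without a call, at -0.27 (SE 0.32) in experiment 1 and -0.48 (SE 0.21) in experiment 2. Ago2KO cells had -0.29 (SE 0.22), not called, for Mir3064. With all libraries and TMM scaling, no difference between genotypes was called for it. Its input was called lower in Trim71KO of experiment 2 under library size alone (-0.59, adjusted p = 0.0428), and in 1 fit with a library left out in each experiment. These rows come from total RNA libraries and do not measure mature microRNAs. Whether a read in a hairpin row was also counted for its host gene is not given in the sources used here.

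The genes whose group means ran most like each member were found by Pearson's r over the 6 groups of experiment 1 and over the 8 groups of experiment 2, averaged, among 12445 genes. These are descriptions over groups that share libraries and scaling. Dgcr8 ran closest to Meg3 (mean r 0.99), ENSMUSG00000045799 (0.98) and Ptma (0.98), and Drosha to ENSMUSG00000106082 (0.97) and Zhx1 (0.95). Dicer1 ran closest to Asap1 (0.97), Herc1 (0.96) and Fam214a (0.95), and Tarbp2 to Dedd, ENSMUSG00000107853 and Emg1 (0.98, 0.97 and 0.97). For Xpo5 the nearest were Pdcd11, Urb1 and Ints4 (0.96, 0.95 and 0.95), and for Prkra they were Ube4b, Iqcb1 and ENSMUSG00000037827 (0.96, 0.96 and 0.95). Ddx5 was nearest to Rbfa, Cops3 and Caprin1 (0.98, 0.97 and 0.97), and Ddx17 had the weakest likenesses, Pcnx3, Shank3 and Sema6c (0.89, 0.89 and 0.88). Among the 8 genes themselves, Dgcr8 and Xpo5 had r of 0.87 in experiment 1 and 0.82 in experiment 2, and Dicer1 and Tarbp2 had 0.78 and 0.71. Drosha and Dgcr8 had -0.78 and 0.29.

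Other genes of the pathway were read from 4 lists. Over all genes tested, tag-specific enrichment was called higher for 28.1% and lower for 28.8% in experiment 1, and higher for 18.9% and lower for 8.77% in experiment 2, and the counts of each list are to be read against these shares. Of 19 nuclear cofactors of primary microRNA processing, tag-specific enrichment was called for 3 higher and 14 lower in experiment 1 and for 3 higher and 9 lower in experiment 2. Their median was -0.86 and -0.21, beside -0.10 and -0.03 over all genes. Ddx3x, a DEAD-box helicase, was enriched by 1.98 and 1.29 and the m6A methyltransferase Mettl3 by 0.77 and 0.45, while Hnrnpa2b1 and Srsf3, encoding RNA-binding proteins, fell by 1.49 and 1.26 in experiment 1. Of 7 measured genes of precursor export and tailing, 1 was higher and 4 lower in experiment 1, and 1 higher and 2 lower in experiment 2. The terminal uridylyltransferase Tut1 was enriched by 1.66 and 1.28, and Ran, the GTPase that works with Xpo5, fell by 0.79 and 0.20. Of 11 chaperones of Argonaute loading, 1 was higher and 9 lower in experiment 1, and 1 higher and 2 lower in experiment 2, with Dnajb1 enriched by 1.60 and 0.65. The called share of the chaperones in experiment 2, 3 of 11, was at the background of 27.7%.

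Of 9 measured genes of microRNA turnover, 6 were higher and 2 lower in experiment 1, and 2 higher and 0 lower in experiment 2, where 18.9% of all genes were higher. The exonuclease Eri1 was enriched by 3.51 and 2.35 and the poly(A) polymerase Tent2 by 1.04 and 0.95, whereas the highest values among the 8 biogenesis genes, both of Dicer1, were 0.61 and 0.26. In Ago2KO the enrichment of Eri1 fell by 1.34 (SE 0.11, adjusted p = 2.44e-08), of Ddx3x by 0.55 (SE 0.13, adjusted p = 0.0106) and of Tent2 by 0.52 (SE 0.12, adjusted p = 0.0083). The Ddx3x input was itself called higher in Ago2KO, by 0.42 (SE 0.09, edgeR adjusted p = 0.00411), and that rise enters its fall in enrichment. In Trim71KO, Ddx3x was the one list gene called in experiment 1 (-0.67, adjusted p = 0.0197, lost in 8 of 12 fits with 1 library left out), and none was called in experiment 2 by edgeR. Over all genes 3.74% and 1.49% were called there, so few calls are no trait of these lists. Trim71KO inputs had called genes in each list: in experiment 1, 1 of 19 nuclear cofactors was higher and 8 were lower, and in experiment 2, 5 were higher and 0 lower. Over all genes the shares were 16.5% higher and 17.4% lower in experiment 1, and 13.5% and 13.7% in experiment 2. Those of experiment 2 included Srrt (0.44, adjusted p = 1.63e-06), whose product links the cap-binding complex to primary microRNA processing, and Khsrp (0.31, adjusted p = 0.000765).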

How the data were processed

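RNA of 42 libraries in 14 groups of 3 was sequenced (TruSeq stranded total RNA kit, per the labels' protocols), with STAR 2.7.3a, bcl2fastq 2.20 and the build GRCm38 named in the submitters' processing notes. The authors deposited whole-number read counts per gene, 1 table per experiment, and these counts were used as given. The counting tool, its strand setting and its filter are not given in the sources used here. The 42 per-sample columns of RPKM were not used.

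Counts were fitted with edgeR 4.0.16 in R 4.3.3 (filterByExpr, TMM, quasi-likelihood F test, 1 mean per group, all groups of an experiment together), with Benjamini-Hochberg adjustment over all genes tested and calls at an adjusted p under 0.05. All 8 genes passed the low-count filter. Each SE was derived from the F statistic, and 95% intervals are 1.96 SE either way. Differences between experiments came from 1 joint fit of all libraries over 18620 shared genes. That fit scales all libraries together, so its differences need not equal the gap between values of the separate fits. Alternatives were RLE size factors, library size alone, no filter, DESeq2 1.42.0, only the groups compared, a replicate block and leaving out each library. The edgeR fit was tried on simulated counts for tag-specific enrichment alone. Those counts had the same spread in every group and larger changes than any of the 8 genes. They therefore do not test calls of small changes or in groups that vary more.

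The genes and lists were chosen with earlier results of these data known. The text names the 8 genes, the tagged and targeted genes, up to 2 called genes each way per pathway list and comparison with the largest change among genes with a mean log2 CPM of at least 2, and the 3 genes most alike to each member by the same level rule. One gene that this rule names is not reported here. The hairpin rows inside the genes were added after the counts were seen.

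Same-numbered libraries deviated together with r over 0.1 in all 3 pairs only in experiment 2. These were tagged with Trim71KO in input (r 0.21, 0.27 and 0.30) and IP (0.32, 0.18 and 0.33) and tagged input with IP (0.10, 0.14 and 0.18). Ago2KO libraries shared deviations in replicates 1 and 3 but not 2. With tagged libraries r was 0.58, 0.07 and 0.42 in IP and 0.22, 0.0031 and 0.22 in input. With Trim71KO it was 0.25, 0.07 and 0.19 in IP. The main fits took no numbers as pairs. The replicate blocks were alternative settings fitted over all genotypes of both experiments, so they also joined libraries that did not deviate together. No 2 replicate libraries held counts within sampling noise of each other (chi-square per gene 2.87 to 64.1).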

Additional observations from a re-analysis of the deposited data

Results flagged for a closer look

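In 8 cases the response of a gene differed between the experiments by a test of the difference itself in the joint fit. Values are experiment 1 minus experiment 2 on the log2 scale. For tag-specific enrichment they depart from the gap between the separate values. The tag-specific enrichment was higher in experiment 1 for Drosha (0.40), Dicer1 (0.46), Tarbp2 (0.48) and Ddx17 (0.48), and lower for Ddx5 (-0.40). Among the input changes of Trim71KO against tagged cells, the difference was -0.50 for Drosha, -0.35 for Ddx5 and 0.55 for Ddx17. Such differences were common among all genes, at 28.5% for the enrichment and 22.8% for the input change. The tagged inputs of experiment 1 enter all 8. Their coefficient of variation between replicates had a median of 10.3% over the 8 genes, against 5.07% in the other groups. It ran from 1.58% to 16.7% among the 8 genes, so not every gene varied there. Beyond leaving out single libraries, the part of this spread in the 8 differences was not tested.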

How the results depend on the processing

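The 8 genes in 17 comparisons gave 136 results, of which 35 were called. Under the other settings, 27 of the 35 calls and 85 of the 101 results without a call were kept in every fit, and with 1 library left out 24 and 90 were. None reversed (a change of sign between 2 values that were both not called was not counted as a reversal). The replicate block within a fraction, where tagged and Trim71KO numbers are paired, gave 470 genes in place of 295 for the Trim71KO change in enrichment of experiment 2, with 0 of the 8 genes in either, and 94 in place of 18 for its difference between experiments. It called 2 of 8 genes for tag-specific enrichment in experiment 2 and 1 (Drosha) in Ago2KO. With input and IP blocked together, the values were 522 genes, 2 of 8 and, in Ago2KO, 0. Besides these, the block within a fraction changed 2 calls of the 8 genes, both gains: Dicer1 input in Trim71KO of experiment 2 and the difference of Dgcr8 input between experiments.

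Counts of the 8 genes moved as follows. For tag-specific enrichment in experiment 2 (1), RLE, no filter, DESeq2 and the fit of only the groups compared gave 2 each, and library size alone gave 4. For input tagged against untagged in experiment 1 (1), RLE and DESeq2 gave 2, and in experiment 2 (0) the fit of only the groups compared gave 1. Library size alone gave 5 of 8 for the enrichment remaining in Trim71KO of experiment 1, 1 for the Ago2KO change and 4 for Trim71KO input in experiment 2. DESeq2 gave 1 for the Trim71KO change in experiment 1, the Ago2KO change and the comparison of the knockouts. Over all genes, the Trim71KO change in experiment 2 had 489 calls with library size alone, 548 by DESeq2 and 136 with only the groups compared. That last fit gave 497 in place of 275 for tagged against untagged input of experiment 2 and 2481 in place of 1376 for Ago2KO input. Library size alone moved the median tag-specific enrichment of all genes in experiment 2 from -0.03 to -0.24, so the sign of small values there depends on the scaling.

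With 1 library left out, members called ranged from 6 to 7 for tag-specific enrichment in experiment 1, 0 to 1 for the Trim71KO change in experiment 1, 5 to 7 for the enrichment remaining in Trim71KO of experiment 1, 0 to 2 for tagged against untagged input in experiment 1, 0 to 2 for tag-specific enrichment in experiment 2, 0 to 1 for the knockouts compared, 1 to 5 for the tag-specific difference between experiments and 3 to 5 for the input difference. All genes called ranged from 339 to 1435 (without Trim71KO input replicate 3 and IP replicate 1; 703 with all) and from 98 to 562 for the Trim71KO change in experiments 1 and 2. For tagged against untagged input they ranged from 722 to 3053 (without tagged input replicates 2 and 1; 1983 with all) and from 154 to 195, for Ago2KO input from 774 to 922, and for the Trim71KO difference between experiments from 6 to 1167 (the last without experiment 1 Trim71KO IP replicate 1). DESeq2 was not run on the joint data. Hairpin rows held 0 to 74 counts a library, so their values are imprecise. Among the 8 genes, Prkra, the least abundant, had the largest SE of tag-specific enrichment in experiment 1 (0.19), and how far depth limits the 8 genes was not tested.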
